A study of Mus musculus with 10 samples.

Results

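Lysosomes receive cargo from endosomes and break it down. Soluble hydrolases, each specific for a bond in proteins, glycans, lipids or sulfate esters, reach them mostly through mannose 6-phosphate receptors, and a proton pump, the V-ATPase, keeps the lumen acidic. The pump has a membrane sector, V0, that conducts protons and a cytosolic sector, V1, that splits ATP, while heavily glycosylated membrane proteins such as Lamp1 line the organelle. In liver, lysosomes of hepatocytes and of resident macrophages (Kupffer cells) digest endocytosed and autophagic material, and the Rab5 GTPases act upstream, on early endosomes.

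The genes described here are 54 lysosomal genes taken by symbol from the platform annotation: 31 hydrolases and soluble helpers, 6 membrane proteins, 15 proton pump subunits and accessory proteins, and the 2 transcription factors Tfeb and Tfe3. They belong to 18193 genes with a probe set named for 1 gene. Of the 54, 52 had such a probe set and all 52 passed a filter on low values (above 4.33 on the log2 scale in at least 2 arrays), and they are among the 12855 genes tested. The membrane protein Cd63 and the V0 subunit Atp6v0c are not analysed here. Gla passed the filter through the Rab5 siRNA arrays, with 3 of them, 0 of the control siRNA arrays and 1 of the PBS arrays above the limit, so that its inclusion depended on its being high there.

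Liver RNA of male mice of the inbred strain C57BL/6 NHsd was measured on Affymetrix arrays whose probe sets lie mostly near the 3′ end of a transcript. Livers of the Rab5 siRNA group (n = 4) were taken on day 5 after lipid nanoparticles with siRNAs against all Rab5 genes at 1.5 mg/kg into the tail vein, those of the control siRNA group (n = 4) after the same particles at the same dose with a control RNA, and those of the PBS group (n = 2) after phosphate-buffered saline alone. The sample titles call the control RNA scrambled whereas the series' design text speaks of luciferase. Only 1 set of siRNAs against Rab5 was used, the particles are given to the whole animal, no age is stated, and nothing states outright that every liver comes from a separate mouse. The p-values therefore reflect the spread among these livers, which may be partly technical. Whole liver was measured, where fewer cells of a type and less RNA per cell cannot be told apart.

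In the Rab5 siRNA livers Rab5a had 28.6% and Rab5c 25.1% of the control siRNA signal left, whereas Rab5b, which was near the filter limit, differed by -0.24 (limma, adjusted p = 0.194). On the first principal component of all genes (60.7% of the variance) Rab5 siRNA replicate 1 lay at 17.5, the other Rab5 siRNA arrays between 30.3 and 38.3, and the control siRNA arrays between -25.0 and -15.9. The deposited table holds log2 values, so changes below are differences of mean log2 values, with control siRNA subtracted from Rab5 siRNA where nothing else is said. They were tested with limma across all 12855 genes, and a gene was called where its adjusted p (Benjamini-Hochberg over all genes) was under 0.05.

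Lysosomal transcripts were more often higher than lower with Rab5 siRNA, and their response was uneven between the classes. Of 52 measured genes, 16 were called higher (30.8%) and 2 lower, against 13.8% of all genes called higher and 9.51% called lower. The 16 include Gla, whose inclusion depended on its being high with Rab5 siRNA. The median change of the 52 was 0.19, against 0.00 over all genes. In 18 of the 52 all 4 Rab5 siRNA arrays lay above all 4 control siRNA arrays, which held for 13.8% of all genes, and in 3 all 4 lay below, which held for 11.2%. The protease Lgmn and the pump subunit Atp6v0d2 changed by 2-fold or more, 2 of 52 or 3.85%, against 3.87% of all genes.

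By class, 11 of 31 hydrolases and helpers were called higher and 0 lower, with a median change of 0.22. At an unadjusted p under 0.05, 15 of the 31 were higher and 2 lower (Gaa and Fuca1), against 19.6% of all genes higher and 15.4% lower. Of the proton pump, 5 of 14 were called higher and 0 lower, 7 higher and 0 lower at the unadjusted p, and the median was also 0.22. Among 5 membrane proteins 0 were called higher (0 also at the unadjusted p) and 2 lower, with a median of -0.02. Neither transcription factor was called. These counts moved with single arrays. Without control siRNA replicate 4, 9 of the 52 were called higher, against 12.7% of all genes. Without Rab5 siRNA replicate 3 it was 9 against 10.7%, and without Rab5 siRNA replicate 1 it was 19 against 16.2%. Leaving out any 1 of the 10 arrays left 2 or 3 called lower, against 6.82% to 10.4% of all genes. The members were chosen with results of these data known, so the classes carry no test of their own and the differences between them were not tested.

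**Figure D1:**
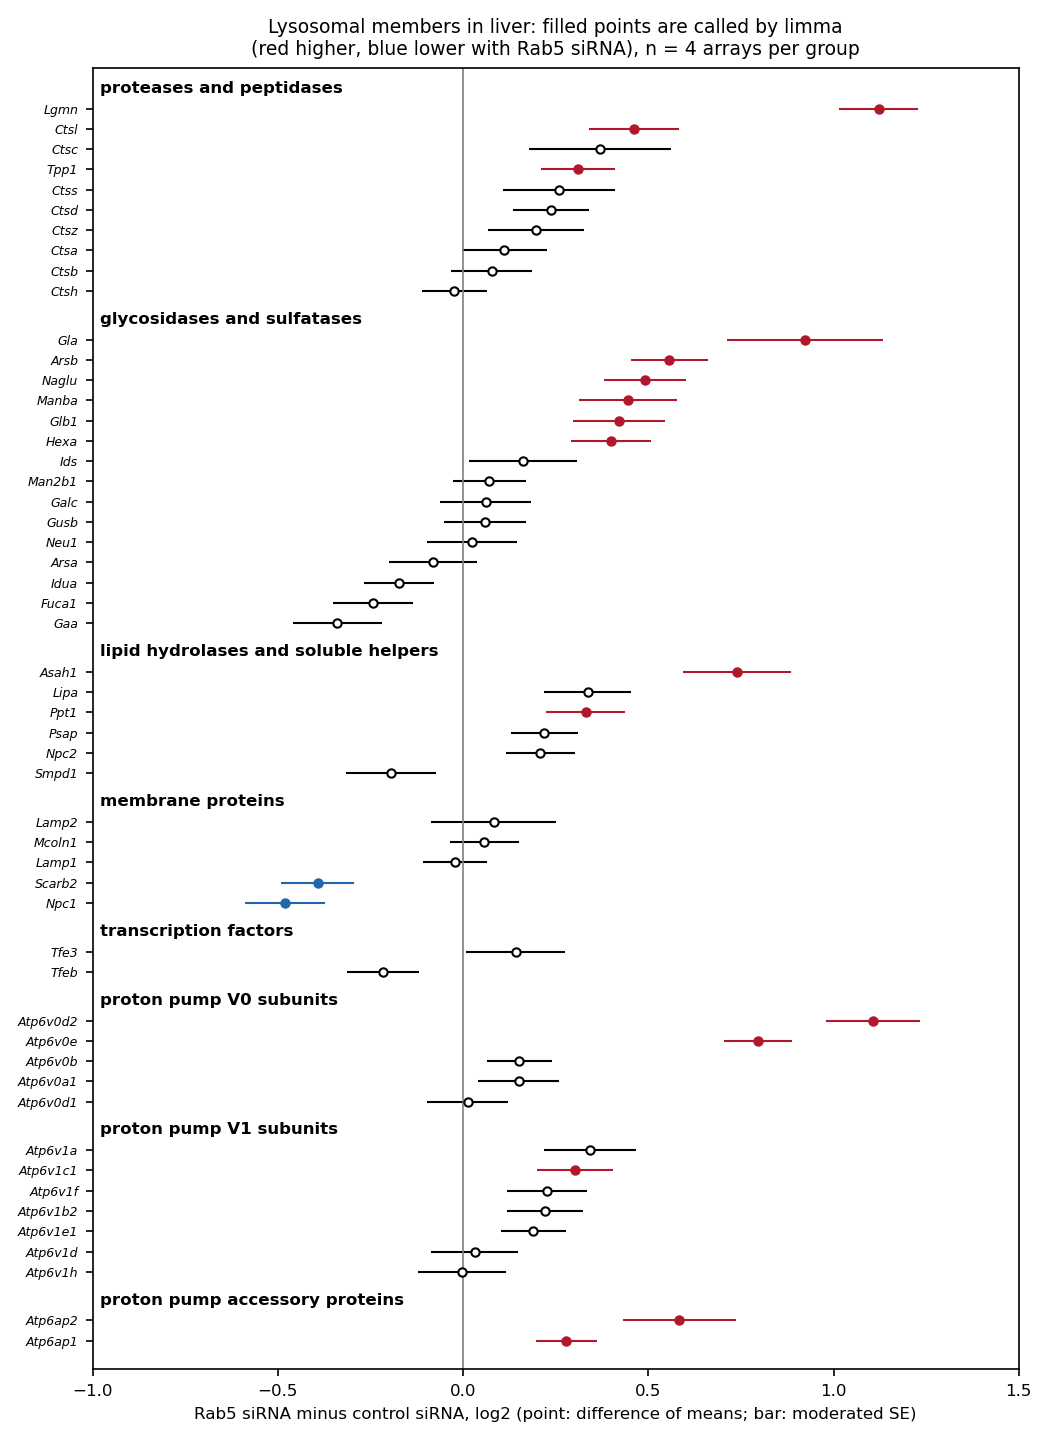
Change of each of the 52 measured lysosomal genes in liver, Rab5 siRNA minus control siRNA on the log2 scale (horizontal axis), grouped by class; points are differences of group means (n = 4 arrays each), bars the moderated standard error of limma, filled points genes with an adjusted p under 0.05. Called rises occur among hydrolases and pump subunits, up to 1.12 for Lgmn, and the 2 called falls, Scarb2 and Npc1, are membrane proteins.

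Averaging the log2 values of a class within each array, relative to the control siRNA group's average, shows how even this was across livers. For hydrolases and helpers the Rab5 siRNA arrays stood at 0.15, 0.21, 0.35 and 0.26 (replicates 1 to 4), against -0.11 to 0.13 in the control siRNA arrays and -0.02 to 0.00 in the PBS arrays. For the proton pump they stood at 0.20, 0.32, 0.37 and 0.37, against -0.05 to 0.05 with control siRNA and 0.02 to 0.03 with PBS. In both classes every Rab5 siRNA array was above every other array. For the 5 membrane proteins the Rab5 siRNA arrays lay between -0.28 and -0.07, and the control siRNA arrays between -0.09 and 0.08, so these ranges overlapped. Differences were also taken between arrays of the same replicate number, although the check described with the processing does not settle whether these are pairs. The hydrolase difference was 0.25, 0.24, 0.22 and 0.26 for numbers 1 to 4. That of the pump was 0.20, 0.31, 0.32 and 0.42, and that of the membrane proteins -0.19, -0.19, -0.12 and -0.10. Within every number, the averages of hydrolases and pump were thus higher and that of the membrane proteins lower with Rab5 siRNA. The last was drawn down by Npc1 (-0.48) and Scarb2 (-0.39). By their brightest probe sets, Lamp1, Lamp2 and Mcoln1 changed by -0.02, 0.08 and 0.06.

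Markers of macrophages were also higher on average with Rab5 siRNA. All 20 listed Kupffer cell and macrophage markers passed the filter, and 11 were called higher with 0 lower. Here and for the marker counts below, 13.8% of all genes were called higher and 9.51% lower. Their summed log2 value ran from 162.2 to 174.9 in the Rab5 siRNA arrays, from 155.6 to 162.5 in the control siRNA arrays and from 157.0 to 160.0 in the PBS arrays. As a mean per gene relative to the control siRNA average, this is 0.09 in Rab5 siRNA replicate 1, 0.67, 0.67 and 0.73 in replicates 2 to 4, and -0.24 to 0.11 in the control siRNA arrays. Rab5 siRNA replicate 1 was within the control siRNA range by this measure, but control siRNA replicate 1 was the lowest of its group. Between arrays of the same number the macrophage markers differed by 0.33, 0.57, 0.61 and 0.65, higher with Rab5 siRNA in all 4. Of 10 hepatocyte markers, all measured, 0 were called higher and 2 lower (Tat at -1.37 and Cps1 at -0.35). Alb (0.05), Apoa1 (0.18), Apoc3 (0.01) and Fgb (0.07) had uncalled changes upward. Ttr, Serpina1c and Hnf4a (each -0.17) and Ass1 (-0.44) had uncalled changes downward. The summed log2 value, in which Tat changed most, ran from 121.2 to 121.8 with Rab5 siRNA, 122.9 to 124.6 with control siRNA and 124.4 to 125.2 with PBS. Markers of other cells moved too. Of 6 monocyte and neutrophil markers 1 was called higher (Plac8 at 0.79) and 0 lower, with a median change of -0.11. Of 4 cholangiocyte markers 1 was higher (Sox9 at 0.45) and 0 lower. Of 12 stellate cell and fibroblast markers 3 were called higher and 0 lower (Vim 0.96, Acta2 0.69 and Reln 0.32), of 9 sinusoidal endothelial markers 1 was higher and 4 lower (Ptprb the most, at -0.53), and of 6 lymphocyte markers 0 were higher and 1 lower (Ighm at -1.38). As a sign of RNA integrity, the log2 difference between 3′ and 5′ control probe sets of actin was 2.59 to 2.75 with Rab5 siRNA, 2.84 to 3.23 with control siRNA and 2.83 to 3.13 with PBS, so the Rab5 siRNA arrays were lower than all others. For Gapdh it was 2.29 to 2.67 with Rab5 siRNA, 2.19 to 2.86 with control siRNA and 2.15 to 2.58 with PBS, which overlap. The part of cell composition and of RNA integrity in the results was not tested.

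**Figure D2:**
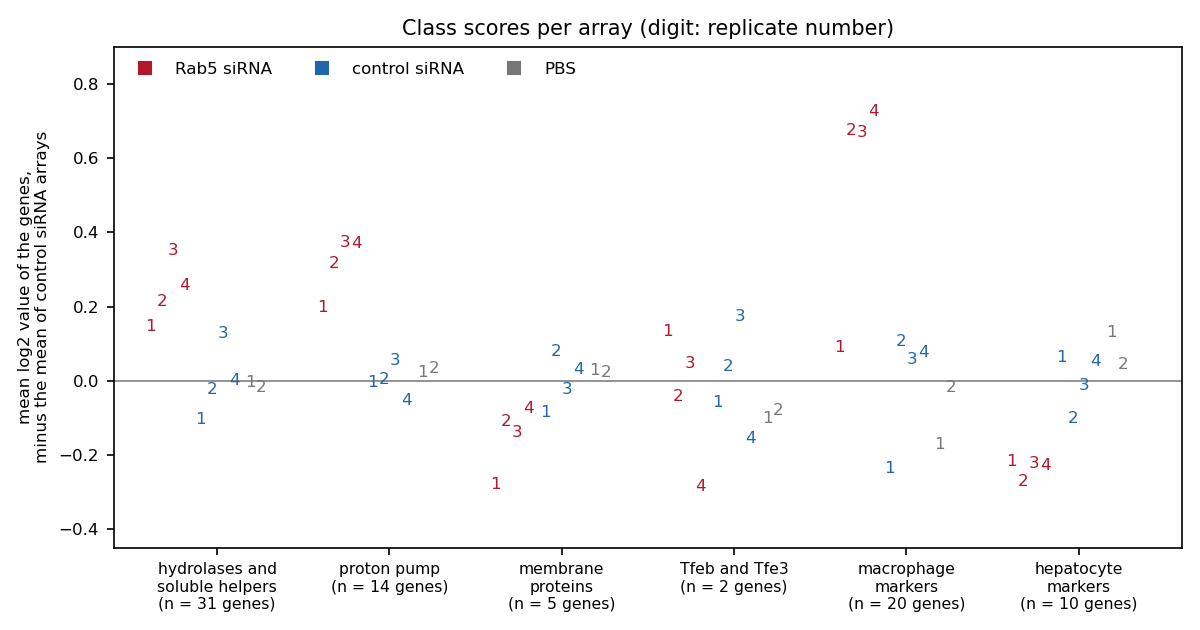
Mean log2 value of each class of genes in each of the 10 arrays, relative to the control siRNA average (vertical axis); digits are replicate numbers, colours the groups. Hydrolase and pump values of all 4 Rab5 siRNA arrays lie above the control siRNA and PBS arrays, and macrophage markers of Rab5 siRNA replicate 1 (0.09) lie among the control siRNA arrays while those of replicates 2 to 4 lie at 0.67 to 0.73.

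Many lysosomal genes carry the letters CACGTG near their start, an E-box that reads the same on both strands and forms the core of the element bound by Tfeb and Tfe3. In RefSeq promoter windows of the mouse assembly GRCm38.p6, from 250 bases before to 50 after a gene start, CACGTG occurred in 7.15% of all 32851 windows and 9.63% of the windows of tested genes. Of 50 windows of the lysosomal genes, 15 held it. The longer palindrome TCACGTGA, which contains the shorter one, occurred in 0.974% of all windows and 7 of the 50. By gene, CACGTG was found for 6 of 13 with a window that were called higher, 9 of 30 that were not called and 0 of 1 called lower (Scarb2). TCACGTGA was found for 2 of 13 called higher (15.4%), 5 of 30 not called (16.7%) and 0 of 1 called lower. The letters were thus present in genes that rose and in genes that did not, and a match describes the sequence only.

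The windows below are shown because they set called and uncalled genes side by side. Each is written 5′ to 3′ on the strand of its gene, in lower case with CACGTG in capitals. The first 4 belong to genes called higher: Gla (chrX:134601156-134601255, minus strand, the first 100 bases of its window), Naglu (chr11:101069994-101070093, plus strand) and Glb1 (chr9:114400978-114401077, plus strand), each the last 100 bases before the start, and 30 bases around the match at the second listed start of Lgmn (chr12:102439124-102439153, minus strand).
Gla: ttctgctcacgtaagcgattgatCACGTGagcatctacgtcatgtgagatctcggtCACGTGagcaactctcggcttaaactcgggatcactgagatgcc
Naglu: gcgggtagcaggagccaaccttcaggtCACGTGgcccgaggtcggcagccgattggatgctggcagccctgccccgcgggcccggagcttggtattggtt
Glb1: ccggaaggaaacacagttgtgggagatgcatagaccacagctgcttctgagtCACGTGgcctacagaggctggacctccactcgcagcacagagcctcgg
Lgmn: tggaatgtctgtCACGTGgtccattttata
Gla held 2 such boxes, beginning at positions -227 and -194 relative to the start, both inside TCACGTGA, and Naglu and Glb1 held 1 each. The next 3 belong to genes that were not called: Lamp1 (chr8:13159061-13159160, plus strand), Mcoln1 (chr8:3500419-3500518, plus strand) and Atp6v0b (chr4:117887330-117887429, minus strand), each the last 100 bases before the start.
Lamp1: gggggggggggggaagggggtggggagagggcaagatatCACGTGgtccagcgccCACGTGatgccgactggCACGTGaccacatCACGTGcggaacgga
Mcoln1: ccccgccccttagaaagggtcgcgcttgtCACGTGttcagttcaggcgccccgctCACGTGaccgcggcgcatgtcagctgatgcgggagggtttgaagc
Atp6v0b: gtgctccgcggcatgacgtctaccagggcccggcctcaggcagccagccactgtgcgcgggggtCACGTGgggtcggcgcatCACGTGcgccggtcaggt
Lamp1, which had 4 boxes in this stretch, was the gene with the most and had a difference of -0.02, whereas Mcoln1 and Atp6v0b, with 2 each, had 0.06 and 0.15. Of the 2 boxes of Mcoln1, 1 was inside TCACGTGA.

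Among 10 proteases and peptidases 3 were called higher and 0 lower, and the median change was 0.25. Lgmn, an asparaginyl endopeptidase also called legumain that matures cathepsins, rose most of all the lysosomal genes. It had 8.85, 9.04, 9.26 and 9.10 on the log2 scale in the Rab5 siRNA livers (replicates 1 to 4), against 7.79, 7.93, 8.06 and 7.98 in the control siRNA livers and 7.82 and 7.93 in the PBS livers. The lowest Rab5 siRNA liver was well above the highest of the other groups. The change was 1.12 (SE 0.11, limma adjusted p = 9.73e-06), a 2.18-fold difference.

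Ctsl encodes cathepsin L, a cysteine protease. Its standing probe set read 10.77, 10.91, 11.005 and 11.27 with Rab5 siRNA, against 10.49, 10.33, 10.55 and 10.74 with control siRNA and 10.61 and 10.72 with PBS. The siRNA groups did not overlap, although Rab5 siRNA replicate 1 was only just above control siRNA replicate 4, and the change was 0.46 (SE 0.12, adjusted p = 0.0145). A dimmer Ctsl probe set, 1457724_at, gave a difference of -0.27, of opposite sign and not called in the fit of all probe sets (adjusted p = 0.398), and what part of the transcript either measures is not in the annotation. With the most variable probe set standing for the gene Ctsl therefore had -0.27, and the call was also lost with the mean of its probe sets and without the 2 arrays numbered 2 in the siRNA groups (adjusted p between 0.0790 and 0.661 over these 3 settings).

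Tpp1, a tripeptidyl peptidase, read 9.66, 9.66, 9.81 and 9.73 with Rab5 siRNA, against 9.36, 9.30, 9.63 and 9.32 with control siRNA and 9.38 and 9.47 with PBS. Control siRNA replicate 3 came close to the lowest Rab5 siRNA livers without overlap, and the change of 0.31 (SE 0.10, adjusted p = 0.0379) was no longer called without any 1 of 6 siRNA arrays (all but control siRNA replicate 3 and Rab5 siRNA replicate 1; adjusted p between 0.0673 and 0.102). The other 7 proteases, the cathepsins Ctsa, Ctsb, Ctsc, Ctsd, Ctsh, Ctss and Ctsz, were not called, with differences of -0.02 to 0.37. Ctsd, the main aspartic protease of the lysosome, lay higher in all 4 Rab5 siRNA arrays (10.03 to 10.34) than in the control siRNA arrays (9.78 to 10.02), with a change of 0.24 (adjusted p = 0.113). Ctsc, a dipeptidyl peptidase that activates serine proteases of immune cells, had a change of 0.37 and adjusted p = 0.191, which became 0.0298 with the replicate number as a block.

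Glycosidases and sulfatases were split. Of 15, 6 were called higher and 0 lower, but the median change was 0.07, and 4 had a negative change. Gla, alpha-galactosidase A, which removes terminal galactose from globotriaosylceramide, read 4.29, 5.00, 5.25 and 5.62 with Rab5 siRNA, against 4.04, 4.01, 4.15 and 4.26 with control siRNA and 4.34 and 4.22 with PBS. Rab5 siRNA replicate 1 was just above the highest control siRNA array and below 1 PBS array, whereas replicates 2 to 4 were well above. Its change was 0.92 (SE 0.21, adjusted p = 0.00638), with a spread of 0.56 (SD, n = 4) in the Rab5 siRNA group, the widest of the 52 genes there. All its control siRNA values were under the filter limit, and without the Rab5 siRNA arrays it would not have been included. The call of Gla, 1 of the 6, is therefore no separate support for a rise.

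Arsb, arylsulfatase B, removes sulfate from dermatan and chondroitin chains. It read 8.11, 8.19, 8.16 and 8.28 with Rab5 siRNA, against 7.37, 7.63, 7.74 and 7.76 with control siRNA and 7.65 and 7.59 with PBS. The 4 Rab5 siRNA values were close together and above every other liver, with a change of 0.56 (SE 0.10, adjusted p = 0.00160). Naglu, an N-acetylglucosaminidase of heparan sulfate breakdown, read 7.63, 7.35, 7.70 and 7.26 with Rab5 siRNA, against 6.95, 7.04, 7.05 and 6.94 with control siRNA and 7.08 and 7.18 with PBS. Here replicates 1 and 3 were the highest, no array overlapped, and the change was 0.49 (SE 0.11, adjusted p = 0.00593). Manba, beta-mannosidase, read 6.45, 6.87, 6.81 and 7.03 with Rab5 siRNA, against 6.09, 6.498, 6.44 and 6.36 with control siRNA and 6.61 and 6.44 with PBS. Rab5 siRNA replicate 1 lay inside the control range, and the change of 0.44 (SE 0.13, adjusted p = 0.0273) was not called without control siRNA replicate 1 or 4 or Rab5 siRNA replicate 2, 3 or 4 (adjusted p between 0.0504 and 0.0823).

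The other called genes of this class were Glb1, beta-galactosidase, with a change of 0.42 (adjusted p = 0.0253), and Hexa, the alpha subunit of beta-hexosaminidase, with 0.40 (adjusted p = 0.0170). In both, all 4 Rab5 siRNA arrays were above all control siRNA and PBS arrays. Glb1 was not called without control siRNA replicate 1, 2 or 4 or Rab5 siRNA replicate 3 (adjusted p between 0.0501 and 0.0741), and Hexa not without control siRNA replicate 4 or Rab5 siRNA replicate 3 (adjusted p between 0.0507 and 0.0581). At the other end stood Gaa, acid alpha-glucosidase, which digests lysosomal glycogen. Gaa read 8.19, 8.06, 8.16 and 7.66 with Rab5 siRNA, against 8.34, 8.42, 8.45 and 8.23 with control siRNA and 8.32 and 8.39 with PBS. All 4 Rab5 siRNA livers were below the other livers, but the change of -0.34 missed the threshold (SE 0.12, adjusted p = 0.0579), and passed it with the replicate number as a block (adjusted p = 0.0203). The remaining 8, Arsa, Fuca1, Galc, Gusb, Ids, Idua, Man2b1 and Neu1, were not called, and with Gaa the uncalled genes ranged from -0.34 to 0.16.

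Of 6 lipid hydrolases and helpers 2 were called higher and 0 lower, with a median change of 0.28. Asah1, acid ceramidase, which splits ceramide into sphingosine and a fatty acid, read 8.51, 8.90, 8.73 and 9.22 with Rab5 siRNA, against 7.82, 8.18, 8.11 and 8.28 with control siRNA and 7.87 and 7.96 with PBS. No array overlapped, and the change was 0.74 (SE 0.15, adjusted p = 0.00250), a 1.67-fold difference. Ppt1, which removes palmitate from proteins, read 7.45, 7.65, 7.77 and 7.74 with Rab5 siRNA, against 7.27, 7.23, 7.40 and 7.38 with control siRNA and 7.43 and 7.13 with PBS. Its change of 0.33 (SE 0.11, adjusted p = 0.0381) was not called without any 1 of 7 siRNA arrays, Rab5 siRNA replicate 1 being the exception (adjusted p between 0.0510 and 0.106), but its second probe set, 1422468_at, changed by 0.58 (adjusted p = 0.00223 with the most variable probe set standing for the gene).

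Psap, the precursor of the saposins that help hydrolases reach lipids, and Npc2, which carries cholesterol to Npc1, were higher by their brightest probe sets. All 4 Rab5 siRNA arrays lay above the control siRNA arrays, with uncalled changes of 0.22 (adjusted p = 0.101) and 0.21 (adjusted p = 0.126). A dimmer Npc2 probe set had a change of the other sign, given below with Npc1. Lipa, lysosomal acid lipase, had a change of 0.34 (adjusted p = 0.0569, and 0.0380 with the replicate number as a block). Smpd1, acid sphingomyelinase, which makes the ceramide that Asah1 splits, had a change of -0.19 (adjusted p = 0.280).

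The 5 measured membrane proteins gave 2 called falls and 0 rises. Npc1, which exports cholesterol from the lysosome, read 7.87, 7.78, 7.99 and 7.97 with Rab5 siRNA, against 8.29, 8.49, 8.33 and 8.42 with control siRNA and 8.44 and 8.02 with PBS. All Rab5 siRNA livers were below the others, but PBS replicate 2 lay close to them, and the change was -0.48 (SE 0.11, adjusted p = 0.00571). By its brightest probe set the soluble partner Npc2 had a change of the opposite sign, though one that was not called. Of its other kept probe sets, 1416901_at gave 0.20, but the dimmer 1455768_at gave -0.31, the sign of Npc1. That change was not called in the fit of all probe sets (limma, adjusted p = 0.0779). Scarb2, also called LIMP-2, a receptor that carries glucocerebrosidase to lysosomes, read 9.34, 9.67, 9.55 and 9.72 with Rab5 siRNA, against 9.94, 9.97, 9.94 and 10.002 with control siRNA and 9.94 and 9.93 with PBS. The livers without Rab5 siRNA had nearly the same value and all 4 Rab5 siRNA livers were lower, with a change of -0.39 (SE 0.10, adjusted p = 0.0110). A second Scarb2 probe set, 1460235_at, gave -0.11 (adjusted p = 0.599 among all probe sets) with overlapping arrays, and the mean of both, -0.25, was not called (adjusted p = 0.0675).

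Lamp1, a major glycoprotein of the lysosomal membrane, read 11.88, 12.03, 11.99 and 11.98 with Rab5 siRNA, against 11.97, 12.06, 12.02 and 11.92 with control siRNA and 11.92 and 11.95 with PBS. These ranges overlap throughout, and the change was -0.02 with a 95% interval of -0.21 to 0.16, an interval that leaves out the changes seen for Asah1 or Arsb. Mcoln1, a cation channel that releases lysosomal calcium, read 7.26, 7.09, 7.14 and 6.95 with Rab5 siRNA, against 7.06, 7.01, 7.02 and 7.12 with control siRNA and 7.22 and 7.21 with PBS. Its change was 0.06 (adjusted p = 0.708, 95% interval -0.14 to 0.26).

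Of 29 lysosomal genes with at least 2 kept probe sets, 17 had changes of 1 sign over all of them and 12 of both signs, among which only Ctsl and Lamp2 had a probe set that was called. The 17 include Atp6v0d2, whose dimmer probe set was kept through Rab5 siRNA arrays alone. Lamp2, whose splice forms serve lysosome integrity and forms of autophagy, gave different answers by probe set. The brightest, 1434503_s_at, read 11.15, 11.77, 11.54 and 11.91 with Rab5 siRNA, against 11.21, 11.77, 11.49 and 11.58 with control siRNA and 11.51 and 11.91 with PBS, a change of 0.08 (SE 0.17, adjusted p = 0.769), and 1428094_at also gave 0.08. Yet 1416344_at read 10.69, 10.998, 10.77 and 10.97 with Rab5 siRNA, against 11.04, 11.48, 11.25 and 11.31 with control siRNA and 11.33 and 11.37 with PBS. There every Rab5 siRNA array was below the others, by -0.41 (SE 0.11, adjusted p = 0.0269 among 34945 probe sets tested without the filter), and 1416343_a_at gave -0.41 as well, just short of the threshold (adjusted p = 0.0537). Which Lamp2 splice form each probe set measures is not in the annotation used. The uncalled change given for the gene is that of its brightest probe set, and 1 of its 4 kept probe sets was called. With the most variable probe set standing for its gene, Lamp2 had a called change of -0.41 and the median of the 5 membrane proteins became -0.39.

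**Figure D3:**
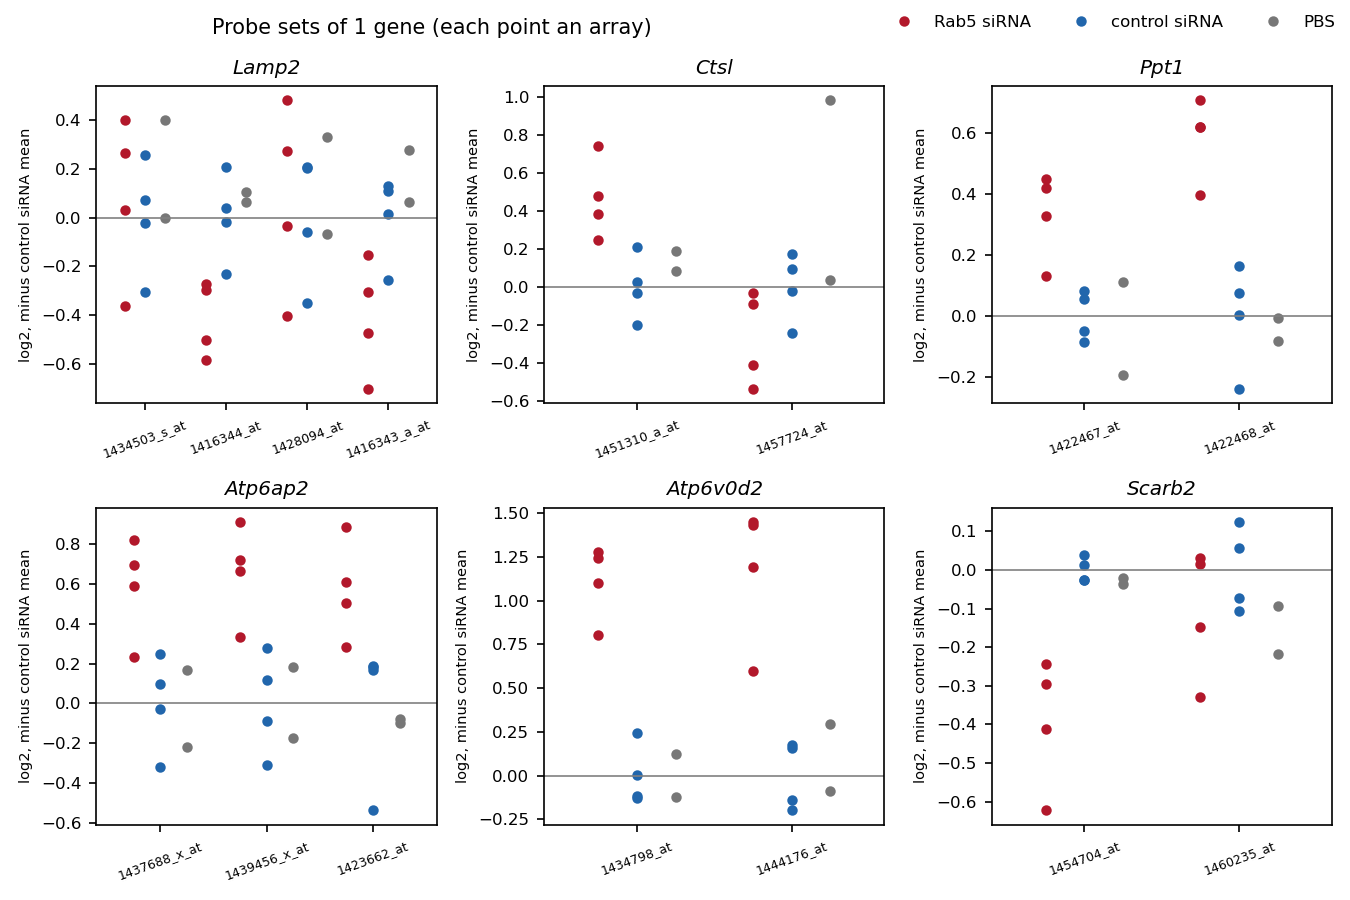
Log2 value of each kept probe set of 6 lysosomal genes in each array, minus the control siRNA average of that probe set (vertical axis); points are arrays, with Rab5 siRNA, control siRNA and PBS from left to right for each probe set. The probe sets of Atp6ap2 and Ppt1 shift upward together, while those of Lamp2 and Ctsl split in direction. Both of Atp6v0d2 lie higher as well, but the dimmer was kept through Rab5 siRNA arrays alone, so its direction followed from the filter.

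The factors that bind the E-box element were not called. Tfeb read 5.95, 5.86, 5.88 and 5.65 with Rab5 siRNA, against 6.08, 6.03, 6.14 and 5.94 with control siRNA and 5.84 and 5.98 with PBS. Only Rab5 siRNA replicate 1 reached into the control siRNA range, and the change was -0.22 (SE 0.10, adjusted p = 0.129). Tfe3 read 7.67, 7.41, 7.58 and 7.14 with Rab5 siRNA, against 7.16, 7.40, 7.56 and 7.11 with control siRNA and 7.32 and 7.22 with PBS. These ranges overlapped, with a change of 0.14 (SE 0.13, adjusted p = 0.492). The activity of both proteins is known to be set largely by phosphorylation and entry into the nucleus, which transcript levels do not show.

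In the V0 sector of the pump 2 of 5 subunits were called higher. Atp6v0d2, one of 2 isoforms of the d subunit, which couples the sectors and is known from osteoclasts and macrophages, read 5.42, 5.72, 5.89 and 5.86 with Rab5 siRNA, against 4.86, 4.49, 4.50 and 4.62 with control siRNA and 4.50 and 4.74 with PBS. Every Rab5 siRNA liver was above every other, replicate 1 being the lowest of them, and the change was 1.11 (SE 0.13, adjusted p = 4.24e-05), 2.15-fold. A second probe set of Atp6v0d2, above the filter limit in Rab5 siRNA arrays alone, changed by 1.17. The widely expressed isoform Atp6v0d1 read 9.50, 9.32, 9.63 and 9.29 with Rab5 siRNA, against 9.50, 9.35, 9.59 and 9.26 with control siRNA and 9.51 and 9.47 with PBS. Here the arrays ran together by replicate number, with a change of 0.01 and a 95% interval of -0.22 to 0.25.

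Atp6v0e, a small V0 subunit, read 10.55, 10.61, 10.61 and 10.55 with Rab5 siRNA, against 9.78, 9.67, 9.97 and 9.73 with control siRNA and 9.85 and 9.81 with PBS. The 4 Rab5 siRNA livers were nearly equal, and the change was 0.80 (SE 0.09, adjusted p = 4.35e-05). Atp6v0a1, an isoform of the large V0 subunit, and Atp6v0b, a part of the proton-carrying ring, both had an uncalled change of 0.15.

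In the V1 sector 1 of 7 subunits was called. Atp6v1c1, a stalk subunit, read 8.58, 8.89, 8.80 and 8.90 with Rab5 siRNA, against 8.48, 8.53, 8.53 and 8.41 with control siRNA and 8.41 and 8.67 with PBS. The siRNA groups did not overlap, although replicate 1 lay close to the controls, and the change of 0.30 (SE 0.10) just passed (adjusted p = 0.0490). It failed to pass without any 1 of 7 siRNA arrays, Rab5 siRNA replicate 1 being the exception (adjusted p between 0.0753 and 0.136). The remaining V1 subunits ranged from -0.00 for Atp6v1h to 0.34 for the catalytic subunit Atp6v1a (adjusted p = 0.0644, and 0.0313 with the replicate number as a block), with Atp6v1b2, Atp6v1d, Atp6v1e1 and Atp6v1f between them.

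Both accessory proteins were called higher. Atp6ap2, the prorenin receptor, which takes part in pump assembly, read 10.26, 10.72, 10.62 and 10.84 with Rab5 siRNA, against 9.71, 10.27, 10.12 and 9.998 with control siRNA and 9.81 and 10.19 with PBS. Rab5 siRNA replicate 1 was just below control siRNA replicate 2, whereas within each replicate number the Rab5 siRNA array was higher, and the change was 0.58 (SE 0.15, adjusted p = 0.0135). All 3 Atp6ap2 probe sets shifted alike, by 0.57 to 0.66. Atp6ap1, which has a role in assembly of the V0 sector, lay at 9.36 to 9.45 with Rab5 siRNA, against 9.09 to 9.18 with control siRNA and 9.11 to 9.12 with PBS. Its narrow ranges did not overlap, with a change of 0.28 (SE 0.08, adjusted p = 0.0263), but the call was lost without control siRNA replicate 2 or 4 or Rab5 siRNA replicate 2, 3 or 4 (adjusted p between 0.0522 and 0.0689).

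**Figure D4:**
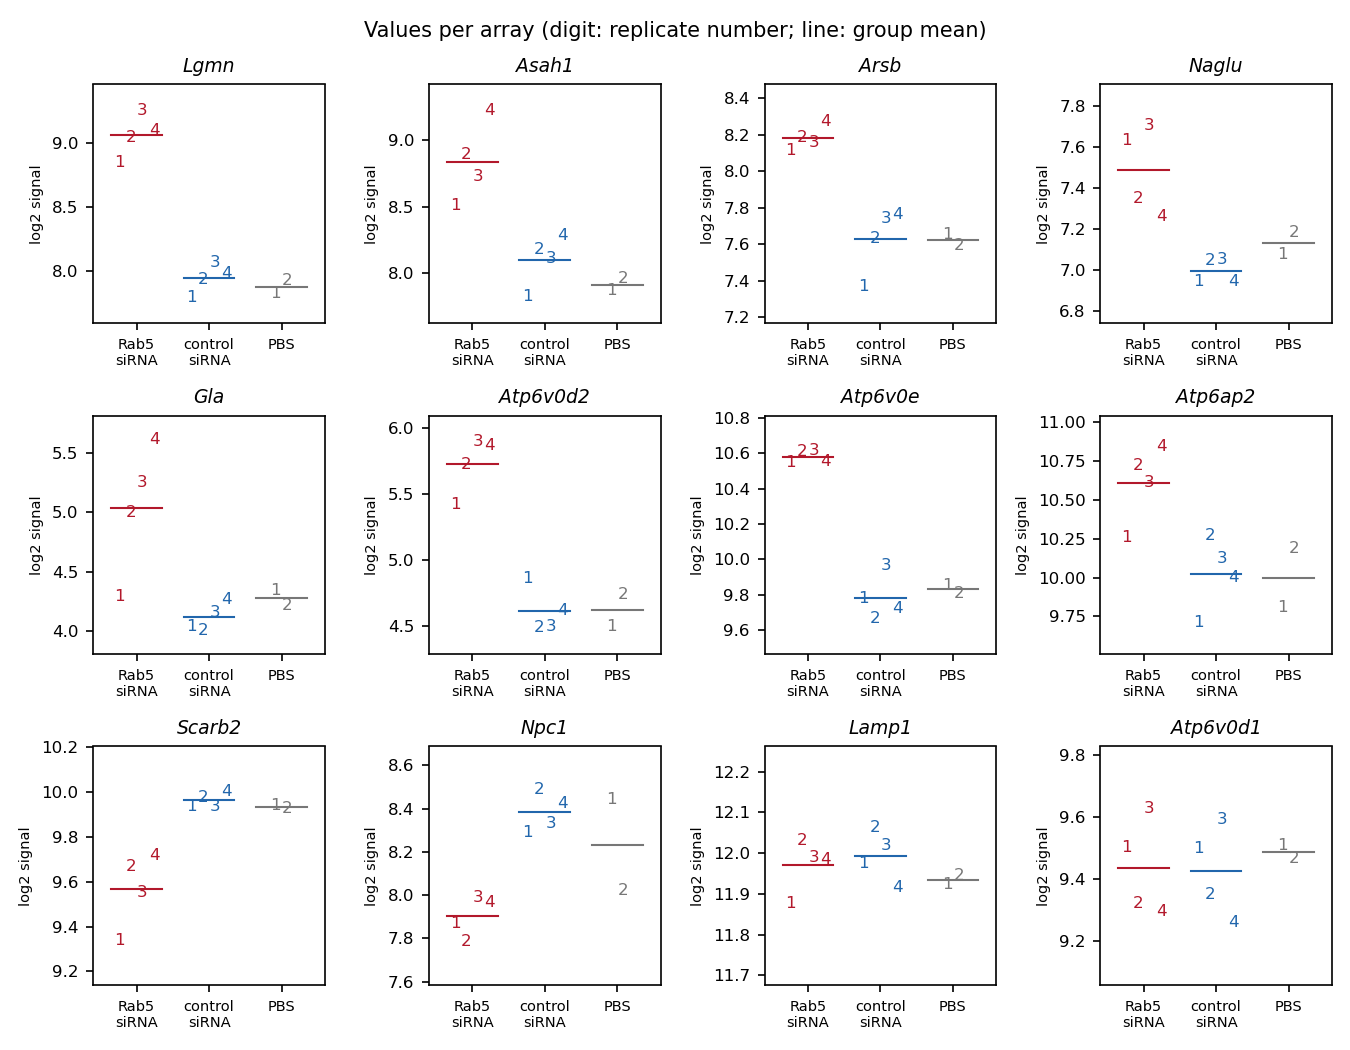
Log2 signal (vertical axis) of 12 lysosomal genes in each liver, Rab5 siRNA, control siRNA and PBS from left to right; digits are replicate numbers and lines group means. Lgmn, Arsb, Atp6v0d2 and Atp6v0e of all 4 Rab5 siRNA arrays lie above every other array, Scarb2 and Npc1 below, and Lamp1 and Atp6v0d1 overlap.

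Against the PBS livers, which share the Rab5 siRNA arrays with the comparison above and number 2, 7 of the 52 genes were called higher and 0 lower, against 9.53% of all genes higher and 7.59% lower. The 7 were Lgmn (1.19), Asah1 (0.93), Hexa (0.58) and Arsb (0.56) among the hydrolases, and Atp6v0d2 (1.10), Atp6v0e (0.75) and Atp6ap2 (0.61) of the pump. All 7 were also among the 16 called higher against control siRNA. Scarb2 and Npc1 were below both PBS livers in all Rab5 siRNA livers, with uncalled changes of -0.36 (adjusted p = 0.0554, and 0.0462 with the replicate number as a block) and -0.33 (adjusted p = 0.112). At an unadjusted p under 0.05 in limma, 20 of the 52 were higher and 3 lower, against 15.8% and 13.2% of all genes. The count of 7 became 4 without PBS replicate 2 (5.28% of all genes) and 11 without Rab5 siRNA replicate 1 (12.1% of all genes). Atp6ap2 was not called without either PBS array, Rab5 siRNA replicate 2, 3 or 4 or control siRNA replicate 3 (adjusted p between 0.0526 and 0.352), Arsb not without either PBS array (0.0535 to 0.0722), and Hexa not without PBS replicate 2 (adjusted p = 0.137).

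Control siRNA against PBS asks what the particle with a control RNA does by itself. In limma 0 of the 52 genes were called, as were 0.0% of all genes, and 1 of the 52 had an unadjusted p under 0.05 (Gusb, beta-glucuronidase, at 0.32), against 554 of 12855 genes. The median change of the 52 was 0.00, with a range of -0.30 to 0.32, so that single genes differed between these groups by up to the size of the smaller changes above.

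Other genes of the lysosomal pathway were taken from lists written for this purpose. Of 99 listed, 82 were measured, with 12 called higher (14.6%) and 4 lower (4.88%), against 13.8% and 9.51% of all genes. The share called higher was thus near that of all genes, and the genes named below are single examples. Their median change was 0.10, against 0.00 over all genes. Among 22 other hydrolases and helpers 3 were higher, namely Grn, the precursor of granulins (0.54), Smpdl3b, a sphingomyelinase-like protein (0.51), and Aga, which cleaves the link of glycans to asparagine (0.45). The largest change of the whole list was a fall. Dnase2a, the acid endonuclease that digests DNA in lysosomes, averaged 8.84 ± 0.325 with Rab5 siRNA and 10.43 ± 0.173 with control siRNA (SD, n = 4 each), which differ by -1.59 (SE 0.15, adjusted p = 1.08e-05), and Ctsf, cathepsin F, changed by -0.52 (adjusted p = 0.00594).

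Among 24 other membrane proteins and transporters 6 were called higher and 0 lower, against 13.8% and 9.51% of all genes. Their median change was 0.01, and none shared the called falls of Scarb2 and Npc1. The largest rises were those of Cd68 (1.08), which is also 1 of the macrophage markers, and Slc15a3, a peptide and histidine transporter (0.90). Litaf, an adaptor of late endosomes (0.79), and Laptm5, a membrane protein of blood cells (0.77), followed. Of 11 genes of the mannose 6-phosphate route and of sorting 0 were called, and the largest change was that of M6pr, a mannose 6-phosphate receptor (0.36, adjusted p = 0.0615). Of 9 further pump subunits, Atp6v0e2 (0.45) and Atp6v1g1 (0.32) were higher and Atp6v0a2 (-0.43) lower. Atp6v0e2 was near the filter limit of 4.33, with means of 4.72 with Rab5 siRNA and 4.28 with control siRNA. Its PBS mean was also under the limit, and how far its inclusion rested on the Rab5 siRNA arrays was not tested. Of 16 genes for factors related to Tfeb and for regulators of the kinase complex mTORC1 on lysosomes, Lamtor5 (0.29), a part of its scaffold there, was higher and Rptor (-0.27), a subunit of the complex, lower.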

How the data were processed

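The values are log2 expression of 45101 probe sets, made and deposited by the authors. Per the submitters' processing notes, the tools named, in no stated order, are Affymetrix Expression Console, Partek 6.6 and RMA (robust multi-array average). RMA equalises the arrays, so a general shift of all transcripts would not be seen. No detection calls were used, and changes of dim probe sets may be compressed. The median log2 value per array lay between 4.29 and 4.37, and precision is limited by how few arrays there are. Total RNA was amplified and biotin-labelled from the 3′ end, per the labels' protocols. The genome build used by the authors is not given in the sources used here.

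Probe sets with exactly 1 gene symbol in the platform annotation were kept if above the median of the table (4.33) in at least 2 arrays (21068 probe sets). Each gene was represented by its brightest kept probe set on average, which gave 12855 genes. A model with the 3 group means was fitted across the 10 arrays in limma 3.58.1 (lmFit, eBayes; R 4.3.3). Genes were called at a Benjamini-Hochberg adjusted p under 0.05. Standard errors (SE) are the moderated ones. The code was tested on simulated data. All probe sets with 1 symbol, 34945 in number and unfiltered, were fitted in the same way to compare probe sets of a gene. Tables and plots were made with Python 3.11.15, pandas 2.3.3 and matplotlib 3.10.9. Promoter windows are RefSeq's, of GRCm38.p6.

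The members, lists and tests were chosen with earlier results of these data known, so no list is tested. Full values are given for up to 4 called members with the largest absolute change in each class, for Lamp1, Lamp2, Npc1, Mcoln1, Tfeb, Tfe3, Atp6v0d1 and Atp6v0d2, and for members whose probe sets differ in sign with at least 1 called. Gaa, Ctsc, Ctsd and Lipa were described after their values were seen. From each other list of the pathway up to 4 called genes are named. Replicate numbers come from the sample titles. Deviations of Rab5 siRNA and control siRNA arrays of the same number from their group means correlated at 0.15 to 0.39 over genes in all 4 pairs, against -0.33 to 0.20 for the other 12 combinations. These ranges overlap: the arrays numbered 2 had 0.15, below Rab5 siRNA replicate 2 with control siRNA replicate 4 (0.20). Such deviations cancel within a group, so positive values within numbers push the others down. Whether the numbers pair the samples is thus not settled, and the main fit does not use them. Alternatives were 2 other filters, 2 other ways to choose the probe set, quantile normalization, array weights, a trended robust spread, only the groups compared, the replicate block, the arrays numbered 2 left out, and each of the 10 arrays left out in turn.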

Additional observations from a re-analysis of the deposited data

Results flagged for a closer look

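In groups of 4 arrays, 114 sets of values of the lysosomal genes were searched for 1 array far from the other 3, of which chance picks out about 1 in 20, and 2 were found. Ctsb, cathepsin B, had 10.68 in Rab5 siRNA replicate 1, below the other Rab5 siRNA arrays (10.97 to 10.99). That array also stood apart from its group on the first principal component. Ctsz, cathepsin Z, had 10.74 in control siRNA replicate 3, above the other control siRNA arrays (10.33 to 10.40). Neither gene was called.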

How the results depend on the processing

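Against control siRNA 18 lysosomal genes were called in the Rab5 siRNA livers, of which 8 were called under every alternative that could give a value (Lgmn, Gla, Naglu, Arsb, Asah1, Atp6v0d2, Atp6v0e and Atp6ap2). Gla and Atp6v0d2 gave a value under 19 of the 20 alternatives. Gla had passed the filter through the Rab5 siRNA arrays, so its calls depend on its being high there. The other 10 lost the call under at least 1 of 20 alternatives. The direction turned for Ctsl (-0.27) and, against its uncalled 0.08, for Lamp2 (-0.41) with the most variable probe set. The 16 higher members became 8 without the arrays numbered 2, against 8.28% of all genes. In both siRNA groups these arrays had the greatest excess of 3′ over 5′ signal of Gapdh and of actin. The count was 19 with the replicate block (16.97% of all genes) and ranged from 9 to 19 with 1 array left out (10.46% to 16.16%). The 2 lower members became 4 with quantile normalization (11.6% of all genes), 1 without the arrays numbered 2 (5.73%) and 3 with the replicate block (11.9%). With 1 array left out they were 2 to 3, against 6.82% to 10.4% of all genes. Against PBS, the 7 higher members became 15 with array weights (13.6% of all genes) and were 4 to 11 with 1 array left out (5.24% to 12.1%). The 0 lower members became 1 with the filter at the 75th percentile, quantile normalization, the trended robust spread or the replicate block, 2 with the most variable probe set or array weights, and 0 to 1 with 1 array left out. Over these settings 3.42% to 12.0% of all genes were called lower. For control siRNA against PBS 0 were called under every alternative. The median of the membrane proteins (-0.02) was -0.16 with the mean of a gene's probe sets and -0.39 with the most variable probe set, and -0.05 to 0.01 with 1 array left out. With 1 array left out the median ranged from 0.18 to 0.24 for hydrolases and helpers and from 0.19 to 0.26 for the proton pump. Beside Ctsc, Gaa, Lipa and Atp6v1a, and Scarb2 against PBS, the replicate block changed no call of a member. The causes of these shifts were not tested. With 2 PBS arrays, no measured background and signals near the filter limit for Gla and Atp6v0d2, small differences are not resolved.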
